A study of Homo sapiens with 24 samples.

Results

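The 50 genes described here encode the kinases, cyclins, checkpoint proteins, kinetochore subunits and spindle proteins that carry a cell through mitosis. They were taken by symbol from the rows of the deposited expression table, and all 50 were found among its 30373 rows. The genes were chosen with earlier results of these data known, so their shares beside all genes are descriptions. The study treated 4 human cell lines for 24 h with 100 nM of ABBV-075, 200 nM of ABBV-744 or the vehicle DMSO alone, and sequenced poly-A RNA in 2 libraries per group, which makes 12 groups. Kasumi-1, MV-4-11 and SKM-1 are acute myeloid leukaemia lines, and NCI-H1299 is a line from non-small cell lung carcinoma. ABBV-075 (mivebresib) inhibits the bromodomains of the BET proteins, which read acetylated histones and recruit the transcription elongation machinery, and ABBV-744 is a BET inhibitor selective for the second bromodomain of these proteins. All groups were grown in the same medium with serum. Each line stands for itself alone, and lung carcinoma is represented by NCI-H1299 only. The doses of the compounds differ, and nothing in the labels says whether the 2 libraries of a group came from separate cultures, so the p-values below measure only the spread between these libraries, which may be technical.

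Most of these genes share a pattern of transcription: their promoters are held silent in quiescence and G1 by the DREAM complex, and are switched on in G2 and mitosis by MuvB with B-MYB and FOXM1. During mitosis CDK1 with cyclin B drives entry, the Aurora and Polo-like kinases build the spindle, and the spindle assembly checkpoint holds the anaphase-promoting complex (APC/C) inactive until each kinetochore is attached. APC/C with CDC20 then destroys securin and cyclin B, separase cuts cohesin, and the midzone proteins direct cytokinesis.

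Levels are given in FPKM, fragments per kilobase of transcript scaled to the size of the library, as the authors deposited them. Changes are differences of log2(FPKM + 1) with their standard error (SE) from limma, which shared 1 estimate of spread over the 24 libraries. A gene was called when its Benjamini-Hochberg adjusted p over all genes tested in that comparison was below 0.05. All 50 genes passed the filter on low values in every comparison. Depth per library cannot be read from the table. Summed FPKM lay between 543426 and 719215, and the SD over genes of the log2 difference between the 2 libraries of a group was 0.641 for the DMSO group of SKM-1, 0.453 for the ABBV-075 group of Kasumi-1 and 0.188 to 0.299 elsewhere. DMSO replicate 2 of SKM-1 stood apart, with 22.3% of its FPKM in mitochondrial transcripts against 9.13% in replicate 1, and also in KRT8 (0.201 and 1.69 FPKM in replicates 1 and 2), KRT18 (0.387 and 2.71 FPKM), EPCAM (19 and 48.1 FPKM), CD34 (0.193 and 1.07 FPKM) and the member UBE2C (1.01 and 8.68 FPKM). Whether this library holds RNA of other cells was not tested. In it 26 of the 50 members were higher than in replicate 1, with log2 differences from -1.14 to 2.27. It is 1 of the 2 DMSO libraries of SKM-1. UBE2C in SKM-1, and every other change from DMSO in that line, has to be read with that limit.

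Genes known to respond to BET inhibition were read first. HEXIM1, a P-TEFb inhibitor that serves as a marker of BET inhibition, rose with ABBV-075 by 2.97 ± 0.15 in SKM-1, 2.57 ± 0.15 in MV-4-11, 2.03 ± 0.15 in Kasumi-1 and 1.93 ± 0.15 in NCI-H1299, and with ABBV-744 by 0.87 ± 0.15, 1.01 ± 0.15, 0.82 ± 0.15 and 0.61 ± 0.15 in the same order. CDKN1A, which encodes the CDK inhibitor p21, rose with ABBV-075 in all 4 lines, by 3.33 ± 0.18, 1.41 ± 0.18, 2.76 ± 0.18 and 1.16 ± 0.18 in the same order. MYC fell with ABBV-075 by 5.80 ± 0.17 in SKM-1, 1.15 ± 0.17 in MV-4-11 and 3.06 ± 0.17 in Kasumi-1, and was at -0.31 ± 0.17 in NCI-H1299 (adjusted p = 0.154). With ABBV-744, CDKN1A rose by 2.22 ± 0.18 in SKM-1, 0.77 ± 0.18 in MV-4-11 and 1.01 ± 0.18 in Kasumi-1. In NCI-H1299 it was at 0.61 ± 0.18, not called (adjusted p = 0.0724). MYC fell with ABBV-744 by 0.85 ± 0.17 in SKM-1 and 1.02 ± 0.17 in Kasumi-1. It was not called in MV-4-11 (-0.44 ± 0.17, adjusted p = 0.133) or NCI-H1299 (0.02 ± 0.17, adjusted p = 0.991). The summed level of 8 blood cell markers was 492 to 6565 FPKM in the leukaemia libraries and 12 to 16 FPKM in NCI-H1299, where the means of PTPRC, SPI1, CD33 and CD34 were below 0.2 FPKM in each group. Some blood markers were low in leukaemia lines, with MPO at 2.90 and 5.23 FPKM in the DMSO libraries of MV-4-11 and ITGAM at 0.0913 and 0.0873 FPKM in those of Kasumi-1. In SKM-1 the blood marker sum was 2996 and 4514 FPKM with DMSO and 532 and 753 FPKM with ABBV-075. Of 8 lung carcinoma markers, KRT8, KRT18, VIM, CAV1 and YAP1 were at 1 FPKM or more in NCI-H1299, while the means of KRT19, EPCAM and CDH1 were below 0.2 FPKM in each group. The sum of the 8 in NCI-H1299 was 2285 and 2298 FPKM with DMSO and 2971 and 3125 FPKM with ABBV-075. The members of that list differed in direction, since KRT8 went from 156 and 153 to 423 and 420.1 FPKM and KRT18 from 363 and 377 to 899 and 937 FPKM, while CAV1 went from 119 and 119 to 53.2 and 58.5 FPKM and YAP1 from 54.5 and 56.9 to 43 and 42.8 FPKM. The leukaemia libraries held 17.9 to 384 FPKM of the same 8, mostly VIM in MV-4-11 (306 and 289.6 FPKM with DMSO) and EPCAM in Kasumi-1 (70.7 and 62.2 FPKM with DMSO). SKM-1 held both, with VIM at 22.5 and 42.8 FPKM with DMSO and 120 and 124 FPKM with ABBV-075. EPCAM in that line was at 19 and 48.1 FPKM with DMSO and 7.96 and 8.26 FPKM with ABBV-075. The part of these markers in the results below was not tested.

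Without compound, the genes were most abundant in NCI-H1299. They held 0.680% and 0.681% of all FPKM in its DMSO libraries, against 0.393% and 0.417% in SKM-1, 0.320% and 0.344% in MV-4-11, and 0.255% and 0.267% in Kasumi-1. Their median level was 60.4 FPKM in NCI-H1299, 38.3 FPKM in SKM-1, 34 FPKM in MV-4-11 and 22.7 FPKM in Kasumi-1. The most abundant in NCI-H1299 was PTTG1, the securin, at 317 and 321 FPKM, and the least abundant was SGOL1, a protector of centromeric cohesion, at 9.32 and 8.31 FPKM. In SKM-1 the E2 enzyme UBE2C stood far below its level in the other lines, at 1.01 and 8.68 FPKM against 154 and 153 in MV-4-11, 53.6 and 41.9 in Kasumi-1 and 206 and 196 in NCI-H1299. With ABBV-075 the share of all FPKM was 0.262% and 0.264% in NCI-H1299, below every DMSO and ABBV-744 library of that line. In Kasumi-1 it was 0.319% and 0.355% with ABBV-075, above both DMSO libraries. In bulk RNA, fewer cells in G2 and mitosis and less of these RNAs per cell cannot be told apart.

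The calls with ABBV-075 differed by line. In NCI-H1299 47 of the 50 genes fell and 0 rose, beside 26.5% of all genes tested that fell and 20.6% that rose in that comparison. The limma test also gave 0 genes higher at an unadjusted p below 0.05. The median change of the 50 was -1.61, against -0.06 over all genes tested. In 48 of 50 both ABBV-075 libraries lay below both DMSO libraries, as did 46.6% of all genes tested. Of the 50, 44 fell at least 2-fold on the FPKM + 1 scale, and the share of all genes at that cut was not computed. In Kasumi-1 22 rose and 4 fell (background 24.7% higher and 32.6% lower), with a median of 0.33 against -0.09 over all genes. In MV-4-11 1 rose and 20 fell (background 20.3% higher and 22.1% lower), with a median of -0.31 against -0.01. In SKM-1 11 rose and 15 fell (background 32% higher and 29.2% lower), with a median of -0.04 against 0.05, so that in SKM-1 the share of members called lay below or close to that of all genes in each direction.

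The NCI-H1299 count stayed between 46 and 48 under every alternative setting and every left-out library. The MV-4-11 count of 21 was 10 without DMSO replicate 1 and 12 without ABBV-075 replicate 2, and its split was 4 higher and 13 lower when values were rescaled without mitochondrial transcripts, and 3 higher and 16 lower after quantile normalization. The SKM-1 count of 26 was 16 without ABBV-075 replicate 2 and 7 in a fit on the SKM-1 libraries alone (CCNB1, CDC20, PLK4, CCNA2, CDCA5, SGOL1 and FOXM1), and its split was 7 higher and 17 lower when rescaled without mitochondrial transcripts. Without DMSO replicate 1 or 2 of SKM-1 it was 27 or 24. Under all 33 alternatives, 46 of the 47 lower calls in NCI-H1299 held (all but UBE2S). So did 12 of 22 higher and 1 of 4 lower calls in Kasumi-1, 1 of 1 higher and 7 of 20 lower calls in MV-4-11, and 2 of 11 higher and 5 of 15 lower calls in SKM-1, the same 7 genes. The names of those lost without 1 library of their line follow by role. In every gene called against DMSO with either compound, the libraries of the groups did not overlap.

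**Figure D1:**
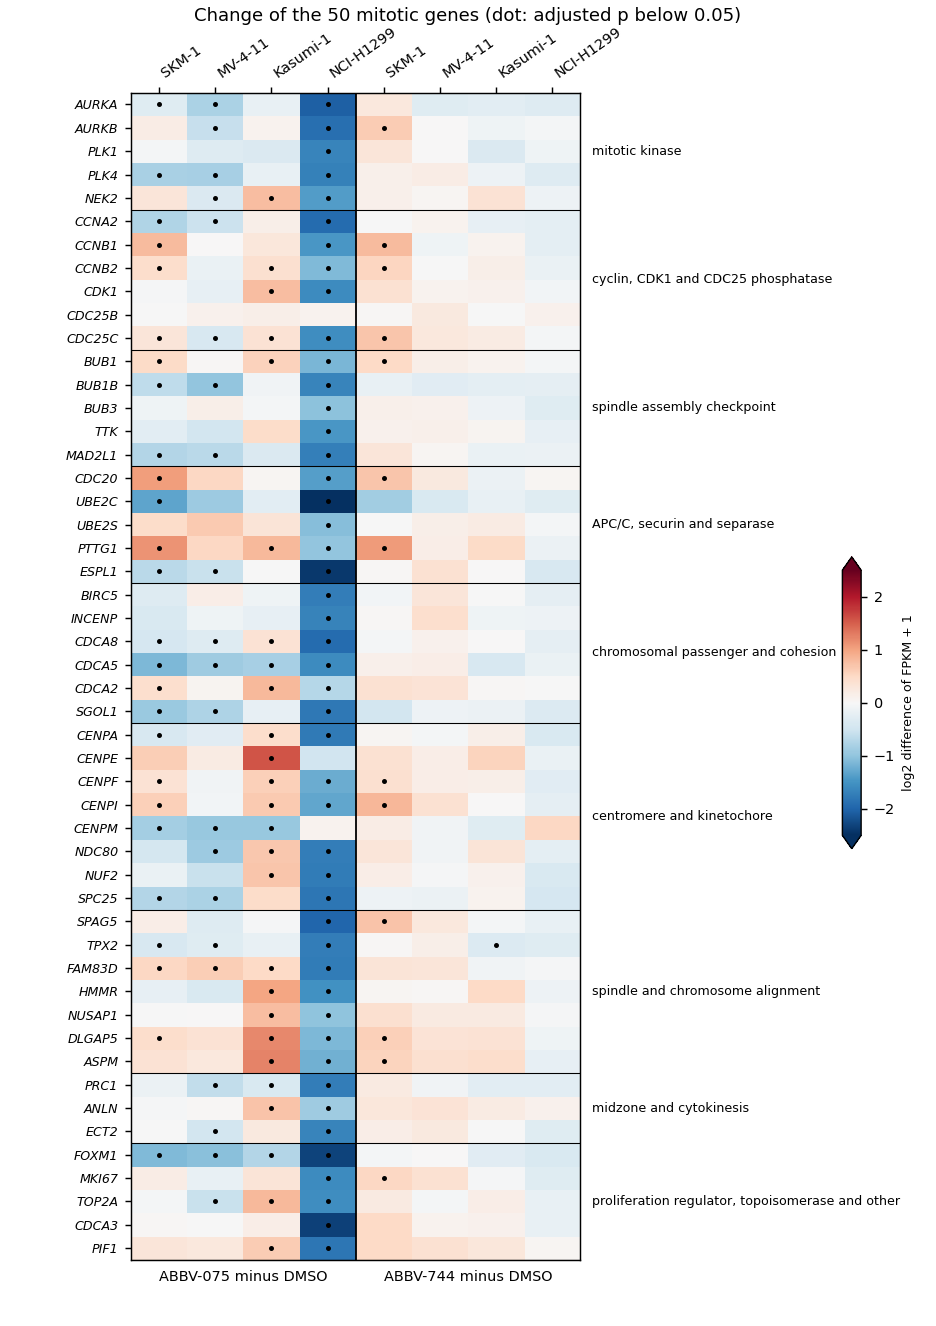
Heat map of the log2 difference of FPKM + 1 from DMSO for the 50 genes (rows, grouped by role) in 4 lines with ABBV-075 (left) and ABBV-744 (right), from groups of 2 libraries; dots mark an adjusted p below 0.05. The NCI-H1299 column with ABBV-075 is blue in nearly all rows (47 lower), Kasumi-1 is mainly red (22 higher, 4 lower), and the ABBV-744 columns are pale.

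Of the 5 mitotic kinases, 5 fell in NCI-H1299, 4 in MV-4-11 and 2 in SKM-1, and NEK2 alone rose in Kasumi-1. Over all genes tested, 26.5% fell in NCI-H1299, 22.1% in MV-4-11 and 29.2% in SKM-1, and 24.7% rose in Kasumi-1. AURKA, which matures the spindle poles, was at 111 and 111 FPKM in the DMSO libraries of NCI-H1299 and at 24.5 and 27.8 FPKM with ABBV-075, a change of -2.05 ± 0.10 (adjusted p = 4e-10). In MV-4-11 it was at 35.1 and 34.8 FPKM and then 19.9 and 19.7 FPKM (-0.79 ± 0.10, adjusted p = 1.47e-05), and in SKM-1 at 39.8 and 38.1 and then 30.0 and 32.4 FPKM (-0.31 ± 0.10, adjusted p = 0.0154). The libraries did not overlap in these lines, and in Kasumi-1 the change of -0.18 ± 0.10 was not called. AURKB, the kinase of the chromosomal passenger complex, fell by 1.88 ± 0.21 in NCI-H1299 and by 0.57 ± 0.21 in MV-4-11. PLK1, the Polo-like kinase of mitotic entry and spindle assembly, fell in NCI-H1299 alone among the 4 tests, from 85.4 and 82.4 FPKM to 27.6 and 24.5 FPKM (-1.65 ± 0.23, adjusted p = 2.55e-05). In SKM-1 its DMSO libraries already differed widely (80.1 and 43.2 FPKM) and held both ABBV-075 libraries between them (62.6 and 52 FPKM). PLK4, the kinase that starts centriole duplication, fell by 1.70 ± 0.13 in NCI-H1299, 0.83 ± 0.13 in MV-4-11 and 0.80 ± 0.13 in SKM-1. NEK2, which separates the centrosomes, went both ways: it fell by 1.39 ± 0.14 in NCI-H1299 and by 0.37 ± 0.14 in MV-4-11 (adjusted p = 0.0496, the call nearest the threshold), and rose in Kasumi-1 from 7.75 and 7.46 FPKM to 13 and 14.3 FPKM (0.77 ± 0.14). Calls in SKM-1 were lost without ABBV-075 replicate 1 for AURKA (-0.26). In MV-4-11 AURKB was called under 18 of 33 alternatives and NEK2 was called under 6 of 33 alternatives.

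The cyclins, CDK1 and the CDC25 phosphatases that activate it separated into groups. CCNB1, the main mitotic cyclin, was at 272 and 260.0 FPKM with DMSO in NCI-H1299 and at 96.4 and 97.3 FPKM with ABBV-075 (-1.45 ± 0.15, adjusted p = 1.06e-06). In SKM-1 it rose instead, from 94.2 and 62.2 FPKM to 131 and 136 FPKM (0.80 ± 0.15, adjusted p = 0.000233). Groups did not overlap in either line, while in MV-4-11 its change was 0.01 ± 0.15 and in Kasumi-1 0.29 ± 0.15, neither called. CCNB2, the other B-type cyclin, rose in SKM-1 (0.44 ± 0.14) and Kasumi-1 (0.39 ± 0.14) and fell in NCI-H1299 (-1.10 ± 0.14). CCNA2, the cyclin of S phase and G2, fell in SKM-1 from 76.5 and 81.8 to 44.5 and 49.1 FPKM (-0.75 ± 0.14), in the line where both B-type cyclins rose. It also fell by 0.54 ± 0.14 in MV-4-11 and 1.92 ± 0.14 in NCI-H1299. CDK1 rose in Kasumi-1, from 97.2 and 119 FPKM to 149 and 229 FPKM (0.78 ± 0.19), with a wide gap between the ABBV-075 libraries, and fell in NCI-H1299 from 123 and 121 to 40.1 and 40.6 FPKM (-1.57 ± 0.19). The 2 phosphatases parted. CDC25C rose in SKM-1 (0.30 ± 0.10) and Kasumi-1 (0.36 ± 0.10) and fell in MV-4-11 (-0.40 ± 0.10) and NCI-H1299 (-1.56 ± 0.10). CDC25B was called in no line, and in NCI-H1299 it was at 54 and 53.3 FPKM with DMSO and 60.1 and 54.5 FPKM with ABBV-075, a difference of 0.09 ± 0.14 with a 95% interval of -0.21 to 0.39. In SKM-1 the threshold was missed without DMSO replicate 2 for CCNB2 (0.20) and CDC25C (0.22), and without ABBV-075 replicate 2 for CCNB2 (0.35) and CDC25C (0.27). The call was lost in MV-4-11 without DMSO replicate 1 for CCNA2 (-0.44) and CDC25C (-0.33), and without ABBV-075 replicate 2 for CCNA2 (-0.44). Calls in Kasumi-1 were lost without DMSO replicate 2 for CCNB2 (0.33) and CDC25C (0.28), without ABBV-075 replicate 1 for CCNB2 (0.41), and without ABBV-075 replicate 2 for CCNB2 (0.38) and CDK1 (0.47).

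**Figure D2:**
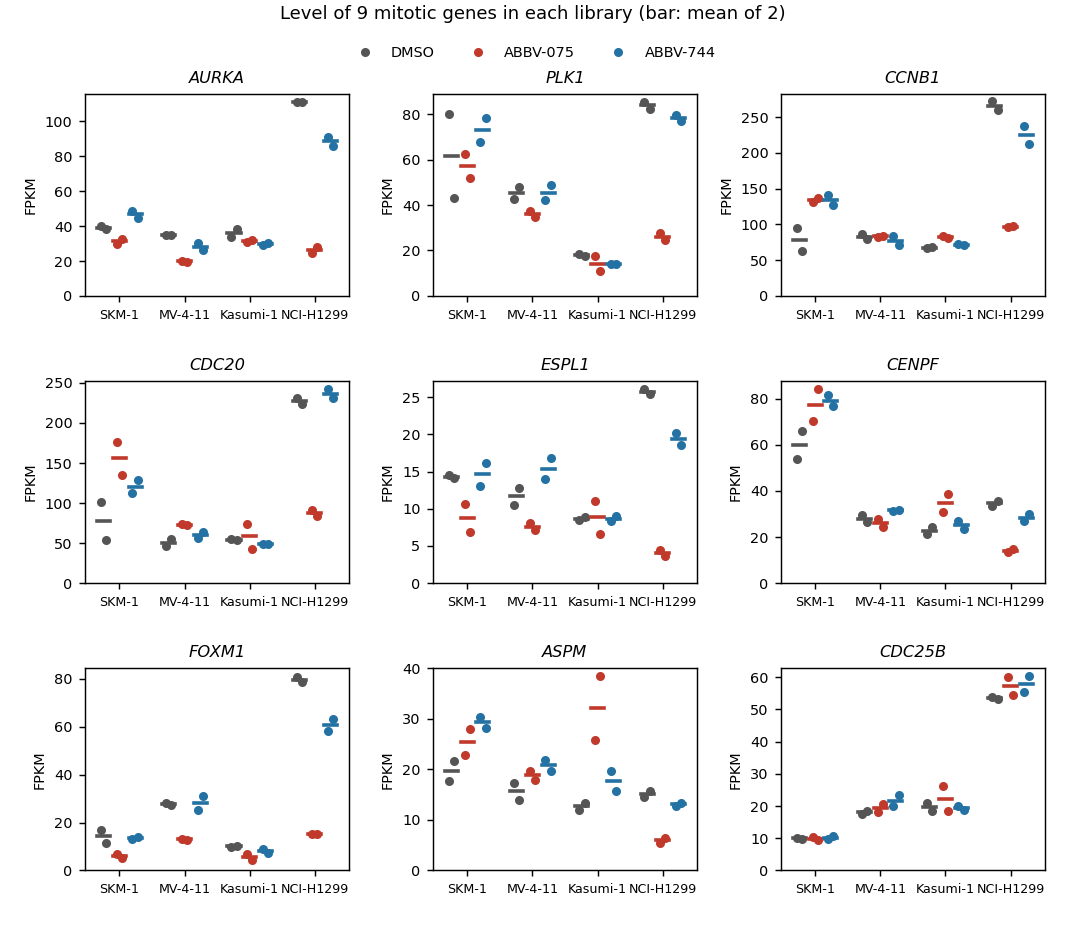
FPKM (linear axis from 0) of 9 genes in each library of the 4 lines with DMSO, ABBV-075 and ABBV-744, with a bar at the mean of 2 libraries. The ABBV-075 libraries of NCI-H1299 sit far below DMSO for 8 of the 9 genes, while CDC25B stays between 53.3 and 60.3 FPKM in that line.

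The 5 spindle assembly checkpoint genes fell together in NCI-H1299, by between 1.03 (BUB3) and 1.70 (MAD2L1) on the log2 scale. Over all genes tested, 26.5% fell in that line. Elsewhere the 5 checkpoint genes did not move as a unit. BUB1, a kinase that recruits checkpoint proteins to the kinetochore, rose in SKM-1 (43.5 and 38.2 to 53.7 and 61.3 FPKM, 0.48 ± 0.12) and in Kasumi-1 (38.7 and 47.4 to 61 and 67.5 FPKM, 0.57 ± 0.12). Its partner BUB1B (BubR1), part of the complex that inhibits APC/C, fell in SKM-1 (51 and 67.4 to 35.2 and 39.8 FPKM, -0.63 ± 0.14) and in MV-4-11 (39.1 and 35.5 to 18.9 and 18 FPKM, -0.98 ± 0.14), and was at -0.10 ± 0.14 in Kasumi-1. MAD2L1 (MAD2), which binds CDC20, fell in SKM-1 (-0.73 ± 0.17) and MV-4-11 (-0.68 ± 0.17). The kinase TTK (MPS1) and the adaptor BUB3 were called only in the NCI-H1299 test, at -1.46 ± 0.21 and -1.03 ± 0.20. In MV-4-11 the threshold was missed without DMSO replicate 1 for MAD2L1 (-0.53).

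Among the APC/C regulators, securin and separase, the calls in SKM-1 went both ways. CDC20, the mitotic activator of APC/C, rose there from 101 and 53.8 FPKM to 176 and 136 FPKM (1.05 ± 0.25, adjusted p = 0.00175), and PTTG1 rose from 149.6 and 67.1 to 210.4 and 232 FPKM (1.13 ± 0.25, adjusted p = 0.00101). ESPL1, the separase that PTTG1 inhibits, fell in the same libraries from 14.5 and 14.1 to 10.6 and 6.86 FPKM (-0.68 ± 0.20). In NCI-H1299 both moved down, ESPL1 from 26.1 and 25.4 FPKM to 4.39 and 3.69 FPKM (-2.41 ± 0.20, adjusted p = 1.16e-07) and PTTG1 from 317 and 321 to 154 and 168 FPKM (-0.98 ± 0.25). UBE2C, the E2 enzyme that starts ubiquitin chains for APC/C, had the lowest change of all 50 genes in NCI-H1299, from 206 and 196 FPKM to 26.1 and 28.8 FPKM (-2.83 ± 0.43, adjusted p = 6.31e-05). Its call in SKM-1 (-1.32 ± 0.43) rests on DMSO replicate 2, the library with high mitochondrial RNA: UBE2C was at 1.01 and 8.68 FPKM in DMSO replicates 1 and 2 and at 0.843 and 0.682 FPKM with ABBV-075. Without that library the change was -0.19, not called, the call was also lost without ABBV-075 replicate 2 (-1.26), and the part of the library's other differences was not tested. The chain-extending E2 UBE2S was called in NCI-H1299 alone among the 4 tests (-1.06 ± 0.27), a call lost without DMSO replicate 1 of that line (-0.85). The call was lost in SKM-1 without ABBV-075 replicate 2 for ESPL1 (-0.40). Calls in MV-4-11 were lost without DMSO replicate 2 for ESPL1 (-0.42), without ABBV-075 replicate 1 for ESPL1 (-0.64), and without ABBV-075 replicate 2 for ESPL1 (-0.47). In Kasumi-1 the threshold was missed without DMSO replicate 1 for PTTG1 (0.80), and without ABBV-075 replicate 2 for PTTG1 (0.71).

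The chromosomal passenger subunits and cohesion factors divided by partner as well. CDCA5 (sororin), which stabilizes cohesin on replicated DNA, fell in all 4 lines. Its level went from 56.6 and 48.6 to 25.3 and 21.6 FPKM in SKM-1 (-1.13 ± 0.14), from 34.2 and 37.5 to 18.9 and 18.8 FPKM in MV-4-11 (-0.89 ± 0.14), from 28.7 and 27.3 to 18.3 and 12.7 FPKM in Kasumi-1 (-0.84 ± 0.14) and from 57.9 and 60.7 to 19 and 19.3 FPKM in NCI-H1299 (-1.58 ± 0.14). In no line did the ABBV-075 and DMSO libraries overlap, and the call held under every alternative in each line. CDCA2 (Repo-Man), which brings phosphatase PP1 to chromatin, rose in SKM-1 (0.42 ± 0.15) and Kasumi-1 (0.80 ± 0.15) and fell in NCI-H1299 (-0.71 ± 0.15). SGOL1 fell in SKM-1 (-0.93 ± 0.20), MV-4-11 (-0.77 ± 0.20) and NCI-H1299 (-1.80 ± 0.20). Of the passenger complex, BIRC5 (survivin) and INCENP fell in NCI-H1299 only among the 4 tests, by 1.72 ± 0.14 and 1.67 ± 0.22, while CDCA8 (borealin) fell in SKM-1, MV-4-11 and NCI-H1299 and rose in Kasumi-1 (27.6 and 23 to 33 and 32.2 FPKM, 0.36 ± 0.12). The call was lost in SKM-1 without DMSO replicate 1 for CDCA2 (0.20), without DMSO replicate 2 for CDCA8 (-0.22), and without ABBV-075 replicate 2 for CDCA8 (-0.36) and CDCA2 (0.29). In MV-4-11 CDCA8 was called under 16 of 33 alternatives. Calls in MV-4-11 were lost without DMSO replicate 1 for SGOL1 (-0.52). In Kasumi-1 the threshold was missed without DMSO replicate 2 for CDCA8 (0.23), without ABBV-075 replicate 1 for CDCA8 (0.34), and without ABBV-075 replicate 2 for CDCA8 (0.37).

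Of the 8 centromere and kinetochore genes, 6 rose in Kasumi-1 and 6 fell in NCI-H1299, beside 24.7% and 26.5% of all genes tested. CENPE, the kinesin that carries chromosomes to the metaphase plate, had the highest change of the 50 in Kasumi-1, from 12.5 and 17.1 FPKM to 30.1 and 68.7 FPKM (1.57 ± 0.35, adjusted p = 0.00119), and its ABBV-075 libraries differed from each other more than 2-fold. It was among the 3 genes not called in NCI-H1299, at 19.5 and 18.2 FPKM with DMSO and 11.3 and 15.6 FPKM with ABBV-075 (-0.47 ± 0.35, 95% interval of -1.22 to 0.27). CENPM, a subunit of the constitutive inner kinetochore, was also not called in NCI-H1299. It fell in all 3 leukaemia lines, in Kasumi-1 (-0.94 ± 0.31), MV-4-11 (-0.95 ± 0.31) and SKM-1 (-0.85 ± 0.31), and was at 20.8 and 18.6 and then 20.1 and 21.8 FPKM in NCI-H1299 (0.08 ± 0.31, 95% interval of -0.58 to 0.74). CENPI, of the same inner layer, rose in SKM-1 (0.60 ± 0.15) and Kasumi-1 (0.66 ± 0.15) and fell in NCI-H1299 (-1.30 ± 0.15), as did the outer kinetochore protein CENPF (0.37 ± 0.14, 0.59 ± 0.14 and -1.24 ± 0.14). NDC80, of the microtubule-binding complex of that name, changed in opposite directions in 2 leukaemia lines. It was at 38.9 and 34.2 and then 20.2 and 17.8 FPKM in MV-4-11 (-0.91 ± 0.20) but at 19.1 and 21.7 and then 26.9 and 40.5 FPKM in Kasumi-1 (0.67 ± 0.20). Its partner NUF2 rose in Kasumi-1 (0.70 ± 0.26), and SPC25 fell in SKM-1 (-0.74 ± 0.26) and MV-4-11 (-0.79 ± 0.26). All 3 fell in NCI-H1299, by 1.73 to 1.80 on the log2 scale. CENPA, the centromeric histone H3 variant, fell in SKM-1 (-0.40 ± 0.13) and NCI-H1299 (-1.76 ± 0.13) and rose in Kasumi-1 (0.45 ± 0.13). The call was lost in SKM-1 without DMSO replicate 1 for CENPA (-0.36), CENPF (0.22) and CENPM (-0.47), without DMSO replicate 2 for SPC25 (-0.25), without ABBV-075 replicate 1 for SPC25 (-0.55), and without ABBV-075 replicate 2 for CENPA (-0.38), CENPF (0.24), CENPI (0.38) and CENPM (-0.59). Calls in MV-4-11 were lost without DMSO replicate 1 for SPC25 (-0.62), without DMSO replicate 2 for CENPM (-0.76), without ABBV-075 replicate 1 for CENPM (-0.90) and SPC25 (-0.68), and without ABBV-075 replicate 2 for CENPM (-1.01). In Kasumi-1 the threshold was missed without DMSO replicate 1 for CENPM (-0.90), NDC80 (0.59) and NUF2 (0.62), without DMSO replicate 2 for CENPA (0.30), CENPM (-0.98) and NUF2 (0.78), and without ABBV-075 replicate 2 for CENPM (-0.34), NDC80 (0.39) and NUF2 (0.31).

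The spindle genes gave the highest changes in Kasumi-1 next to CENPE. ASPM, a spindle pole protein, rose there from 12 and 13.4 FPKM to 25.9 and 38.4 FPKM (1.25 ± 0.18, adjusted p = 1.93e-05) and fell in NCI-H1299 from 14.5 and 15.8 to 5.53 and 6.50 FPKM (-1.21 ± 0.18). DLGAP5 (HURP), which stabilizes kinetochore fibres, rose in Kasumi-1 from 19.9 and 23.3 FPKM to 42.6 and 60.3 FPKM (1.19 ± 0.17), and also in SKM-1 (0.45 ± 0.17). Neither gene's groups overlapped in Kasumi-1 or NCI-H1299. HMMR and NUSAP1, microtubule-binding proteins of the spindle, rose in Kasumi-1 by 0.98 ± 0.30 and 0.77 ± 0.15. FAM83D, which brings casein kinase 1 to the spindle, rose in all 3 leukaemia lines and fell in NCI-H1299: it went from 10.6 and 8.09 to 14 and 13.5 FPKM in SKM-1, from 8.36 and 8.76 to 13.2 and 14.1 in MV-4-11, from 10.8 and 8.91 to 14.7 and 14.1 in Kasumi-1 and from 50.2 and 47 to 14.6 and 12.9 in NCI-H1299. The changes were 0.52 ± 0.13, 0.62 ± 0.13, 0.51 ± 0.13 and -1.75 ± 0.13. TPX2, which activates AURKA on the spindle, fell in SKM-1 (-0.40 ± 0.09), MV-4-11 (-0.31 ± 0.09) and NCI-H1299 (-1.73 ± 0.09). SPAG5 (astrin), a spindle and kinetochore protein, was called in NCI-H1299 alone (-1.98 ± 0.18). The call was lost in SKM-1 without DMSO replicate 1 for DLGAP5 (0.26), and without ABBV-075 replicate 2 for DLGAP5 (0.31). Calls in MV-4-11 were lost without DMSO replicate 1 for TPX2 (-0.24), and without ABBV-075 replicate 2 for TPX2 (-0.27). In Kasumi-1 the threshold was missed without DMSO replicate 1 for HMMR (0.83), and without ABBV-075 replicate 2 for HMMR (0.51).

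The midzone genes and the regulators close the set. PRC1, which bundles midzone microtubules, fell in MV-4-11 (-0.62 ± 0.10), Kasumi-1 (-0.38 ± 0.10) and NCI-H1299 (-1.74 ± 0.10). ANLN (anillin), of the cytokinetic ring, rose in Kasumi-1 (0.71 ± 0.15) and fell in NCI-H1299 (-0.90 ± 0.15), and ECT2, the exchange factor that activates RhoA there, fell in MV-4-11 (-0.46 ± 0.16) and NCI-H1299 (-1.65 ± 0.16). FOXM1, the transcription factor of the G2/M programme, fell in all 4 lines, with CDCA5 the only members to do so. It was at 16.9 and 11.7 and then 6.99 and 5.22 FPKM in SKM-1 (-1.10 ± 0.18), 28.3 and 27.4 and then 13.1 and 12.9 FPKM in MV-4-11 (-1.04 ± 0.18), 9.83 and 10.3 and then 7.06 and 4.54 FPKM in Kasumi-1 (-0.73 ± 0.18), and 80.7 and 78.8 and then 15.3 and 15.4 FPKM in NCI-H1299 (-2.31 ± 0.18). In no line did the libraries overlap. So FOXM1 fell in Kasumi-1 in the same libraries in which 22 of the other genes rose. TOP2A, the topoisomerase that untangles sister chromatids, rose in Kasumi-1 (94.5 and 109 to 153 and 207 FPKM, 0.80 ± 0.17) and fell in MV-4-11 (-0.56 ± 0.17) and NCI-H1299 (-1.55 ± 0.17). MKI67 (Ki-67), the proliferation marker, and CDCA3, which promotes mitotic entry, fell in NCI-H1299 alone among the 4 tests (-1.58 ± 0.14 and -2.34 ± 0.19). PIF1, a DNA helicase, rose in Kasumi-1 (0.64 ± 0.20) and fell in NCI-H1299 (-1.80 ± 0.20). The call was lost in MV-4-11 without DMSO replicate 1 for ECT2 (-0.33) and TOP2A (-0.44), and without ABBV-075 replicate 2 for ECT2 (-0.34) and TOP2A (-0.46). Calls in Kasumi-1 were lost without DMSO replicate 1 for PIF1 (0.58), without ABBV-075 replicate 1 for PIF1 (0.48), and without ABBV-075 replicate 2 for PRC1 (-0.26) and FOXM1 (-0.46).

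**Figure D3:**
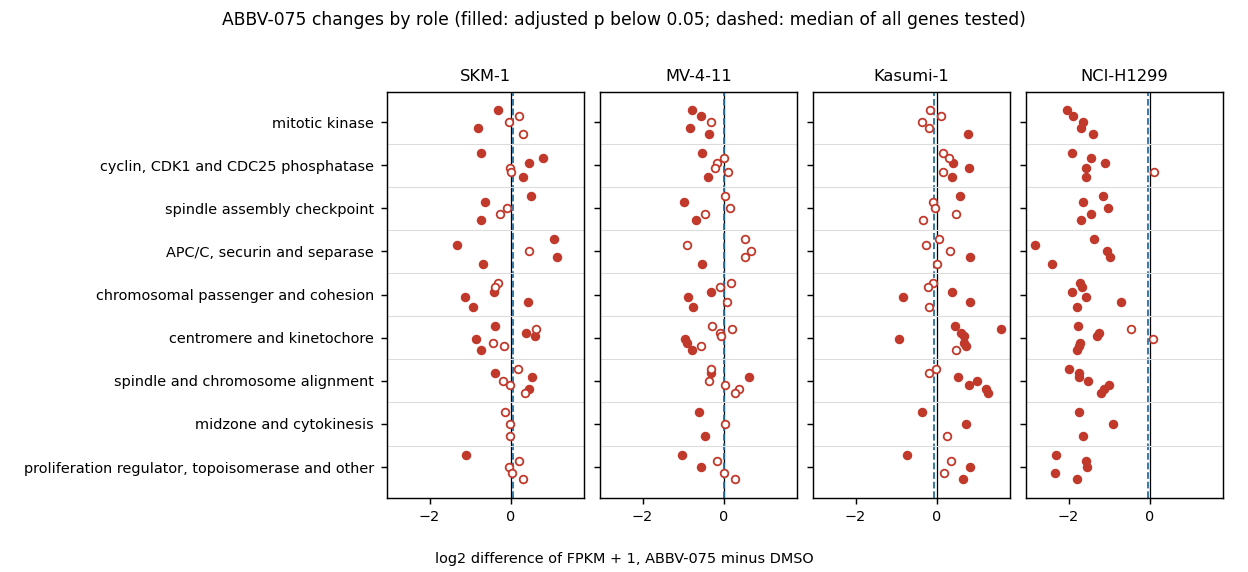
Each point is 1 of the 50 genes: its log2 difference of FPKM + 1 between ABBV-075 and DMSO (x axis) by role (rows) in 4 lines. Filled points have an adjusted p below 0.05, and the dashed line is the median of all genes tested; in NCI-H1299 every gene lies to the left of it except CDC25B and CENPM.

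Across the 4 lines, 21 genes fell in NCI-H1299 and rose in Kasumi-1, among them CDK1, CCNB2, BUB1, NDC80, ASPM and TOP2A. Another 9 were called in NCI-H1299 alone: PLK1, BUB3, TTK, UBE2S, BIRC5, INCENP, SPAG5, MKI67 and CDCA3. In 12 the fall in NCI-H1299 was shared with both SKM-1 and MV-4-11, namely AURKA, PLK4, CCNA2, BUB1B, MAD2L1, ESPL1, CDCA8, CDCA5, SGOL1, SPC25, TPX2 and FOXM1. Of these 12, only PLK4, CDCA5 and FOXM1 were called lower under every alternative in SKM-1, MV-4-11 and NCI-H1299. Within the leukaemia lines 6 genes were higher in 1 line and lower in another: NEK2, CDC25C, CDCA8, CENPA, NDC80 and TOP2A. These counts list calls, some of which did not hold under every alternative. The share of all genes with each pattern was not computed, so whether the counts exceed it was not tested. The differences between lines were tested directly as follows.

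The response to ABBV-075 in NCI-H1299 was set against the mean response of the 3 leukaemia lines. It was lower for 48 of the 50 genes and higher for 0, beside 10.5% lower and 8.0% higher over all genes tested, and 1 gene was higher at an unadjusted p below 0.05. The median difference was -1.56. CDCA3 had the lowest difference (-2.39 ± 0.21, adjusted p = 2.58e-06), followed by FAM83D (-2.30 ± 0.15) and PIF1 (-2.20 ± 0.23). CDCA5 had the difference closest to 0 among those called (-0.63 ± 0.16, adjusted p = 0.0138). CDC25B did not differ beyond its error (0.01 ± 0.16, 95% interval of -0.34 to 0.36), and CENPM lay on the other side (1.0 ± 0.36, adjusted p = 0.0649). The total called stayed between 45 and 49 when each library was left out and between 46 and 49 under the other settings, and 45 of the 48 genes were called lower in each of them. The others were CENPE, called under 21 of 33 alternatives, UBE2C, lost with a pseudocount of 0.1 FPKM and without DMSO replicate 1 or ABBV-075 replicate 1 of NCI-H1299, and CDCA5, lost without DMSO replicate 2 or either ABBV-075 library of that line.

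**Figure D4:**
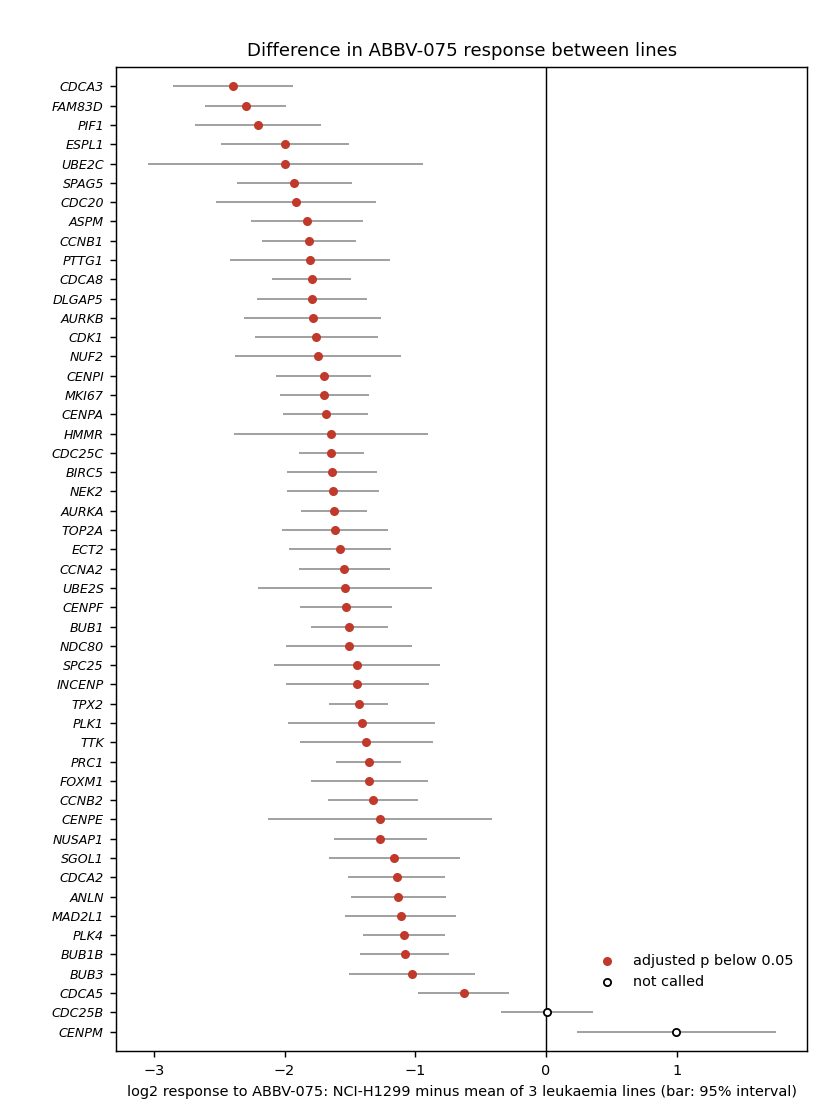
Difference in the log2 response to ABBV-075 between NCI-H1299 and the mean of the 3 leukaemia lines for each of the 50 genes, with its 95% interval. All but CDC25B and CENPM lie below 0 and are called, from CDCA3 at -2.39 to CDCA5 at -0.63.

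The responses of the leukaemia lines were also compared with each other. The response was higher in Kasumi-1 than in MV-4-11 for 26 genes and lower for 0 (background 10.5% higher and 16.7% lower, and 0 lower at an unadjusted p below 0.05). NDC80 (1.58 ± 0.28, adjusted p = 0.000759), TOP2A (1.37 ± 0.23, adjusted p = 0.000664) and NEK2 (1.14 ± 0.20, adjusted p = 0.000856) were among the 8 called under every alternative. The count of 26 was 8 without DMSO replicate 1 of MV-4-11, 11 without its ABBV-075 replicate 2, 10 without DMSO replicate 1 of Kasumi-1 and 12 without its ABBV-075 replicate 2. Against SKM-1, the response in Kasumi-1 was higher for 14 genes and lower for 1 (background 12.2% higher and 18.7% lower). SPC25 (1.20 ± 0.37), HMMR (1.19 ± 0.43) and NDC80 (1.11 ± 0.28) had the highest differences, CDC20 was the gene that was lower (-1.01 ± 0.35, adjusted p = 0.0413), and CENPA (0.85 ± 0.19) was the gene called under every alternative. That total of 15 was 27 without DMSO replicate 1 of SKM-1 and 7 without its DMSO replicate 2. It was 5 without ABBV-075 replicate 1 of SKM-1, 5 without DMSO replicate 1 of Kasumi-1, 6 without ABBV-075 replicate 2 of Kasumi-1, and 1 in a fit on these 2 lines alone. Between SKM-1 and MV-4-11 the response was higher in SKM-1 for 7 genes and lower for 0 (background 15.6% higher and 13.6% lower, with 1 lower at an unadjusted p below 0.05), namely AURKA, NEK2, CCNB1, CCNB2, CDC25C, CENPI and PRC1, with CCNB1 at 0.79 ± 0.21. The share of members called higher was near that of all genes, and the share called lower was below it. Of the 7 genes, CDC25C (0.70 ± 0.14) was called under every alternative. That count was 16 and 12 without DMSO replicates 1 and 2 of SKM-1, 2 without its ABBV-075 replicate 2, 3 and 4 without DMSO replicates 1 and 2 of MV-4-11, and 4 and 3 without its ABBV-075 replicates 1 and 2. The Kasumi-1, SKM-1 and MV-4-11 differences share libraries.

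A promoter was found for 40 of the 50 genes in the RefSeq table for GRCh38.p14, which gives 250 bases before and 50 bases after each start site, in 52 promoters in all (1 gene was matched through its synonym). Motifs were searched on both strands. The cell cycle homology region (CHR), the site through which MuvB binds, was present as TTTGAA in 59.6% of the 52 promoters, against 15.2% of all 35116 in the table, and as TTCGAA in 9.62% against 1.45%. The CCAAT box, the site of NF-Y, was present as CCAAT in 71.2% against 34.6%, and at least 2 copies in 42.3% against 10.8%. The E2F-type letters TTTCCCGC stood in 3.85% against 1.63% and TTTGGCGC in 1.92% against 0.652%. These are matches of letters and show no binding. The 100 bases before the start site are printed for 4 genes with both elements that fell in NCI-H1299, for CCNB1, which has CCAAT boxes without either CHR form in this stretch, and for CDC25B, which was called in no line, the 1 of its 4 promoters in the table that holds a CHR form. They are given 5′ to 3′ on the strand of the gene, with CHR and CCAAT letters in capitals, the latter as ATTGG where it lies on the other strand.
PLK1, chr16:23678789-23678888, plus strand: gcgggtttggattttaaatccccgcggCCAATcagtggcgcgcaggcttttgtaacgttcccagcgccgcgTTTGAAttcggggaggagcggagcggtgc
CCNB2, chr15:59105046-59105145, plus strand: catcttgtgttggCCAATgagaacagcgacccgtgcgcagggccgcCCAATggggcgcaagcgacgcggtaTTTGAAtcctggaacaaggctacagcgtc
CDC20, chr1:43358881-43358980, plus strand: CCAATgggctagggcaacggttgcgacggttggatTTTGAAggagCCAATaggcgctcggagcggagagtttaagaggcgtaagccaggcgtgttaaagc
ESPL1, chr12:53268199-53268298, plus strand: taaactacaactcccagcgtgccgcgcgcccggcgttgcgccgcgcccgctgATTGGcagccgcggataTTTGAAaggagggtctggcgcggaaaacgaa
CCNB1, chr5:69167050-69167149, plus strand: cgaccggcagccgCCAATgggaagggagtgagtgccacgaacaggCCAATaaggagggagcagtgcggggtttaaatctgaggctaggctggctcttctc
CDC25B, chr20:3796210-3796309, plus strand: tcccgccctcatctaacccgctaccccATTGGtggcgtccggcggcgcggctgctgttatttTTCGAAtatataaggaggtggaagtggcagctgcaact
So in these windows the letters of both elements stood before PLK1, CCNB2, CDC20 and ESPL1, and also before CDC25B, where the CHR form is TTCGAA.

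With ABBV-744 at 200 nM none of the 50 genes was called in NCI-H1299 (0 higher and 0 lower in limma, beside 1.40% higher and 3.95% lower over all genes, with 0 higher and 7 lower at an unadjusted p below 0.05). Yet 38 of the 50 had both ABBV-744 libraries below both DMSO libraries, as did 37.1% of all genes tested, and their median change was -0.18 against -0.03 over all genes. FOXM1 was at 58.4 and 63.3 FPKM against 80.7 and 78.8 with DMSO (-0.39 ± 0.18, adjusted p = 0.322), and AURKA at 91.3 and 86 against 111 and 111 FPKM (-0.32 ± 0.10, adjusted p = 0.093). PLK1 was at 79.6 and 77.1 FPKM (-0.10 ± 0.23, 95% interval of -0.58 to 0.39). A fit on the NCI-H1299 libraries alone called 20 of the 50 lower and 1 higher. The shares of all genes called in that fit were not computed, so whether the 20 exceed them was not tested. The count from the fit on all lines was 2 without either DMSO library of SKM-1.

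In SKM-1 ABBV-744 raised 13 genes and lowered 0 (background 14.9% higher and 12.5% lower, with 1 lower at an unadjusted p below 0.05), so the share that rose was above that of all genes. PTTG1 went from 149.6 and 67.1 to 240.1 and 187 FPKM (1.07 ± 0.25, adjusted p = 0.00508), CCNB1 from 94.2 and 62.2 to 141 and 127 FPKM (0.79 ± 0.15, adjusted p = 0.00104) and CDC25C from 9.41 and 8.32 to 16.2 and 13.9 FPKM (0.70 ± 0.10, adjusted p = 0.000127). Their groups did not overlap. AURKB, CCNB2, BUB1, CDC20, CENPF, CENPI, SPAG5, DLGAP5, ASPM and MKI67 made up the rest of the 13. None of these calls held under every alternative. The count was 5 and 7 without ABBV-744 replicates 1 and 2 of SKM-1, 22 (17 higher and 5 lower) without DMSO replicate 1, 12 without DMSO replicate 2, and 0 in a fit on the SKM-1 libraries alone, and rescaling without mitochondrial transcripts gave 6 higher and 1 lower. The comparison shares its DMSO libraries with that of ABBV-075 in SKM-1, where CCNB1, CCNB2, CDC25C, BUB1, CDC20, PTTG1, CENPF, CENPI and DLGAP5 also rose.

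In MV-4-11 0 genes were higher and 0 lower with ABBV-744 (background 4.61% higher and 6.75% lower, with 7 higher and 1 lower at an unadjusted p below 0.05), with a median of 0.14. INCENP had the highest value (0.43 ± 0.22, adjusted p = 0.26) and AURKA was at -0.30 ± 0.10 (adjusted p = 0.0771). Without either DMSO library of SKM-1 3 were called. In Kasumi-1 1 gene fell and 0 rose (background 8.69% higher and 15.0% lower, with 2 higher at an unadjusted p below 0.05). That gene was TPX2, at 50.8 and 52.3 FPKM with DMSO and 41.3 and 39.7 FPKM with ABBV-744 (-0.34 ± 0.09, adjusted p = 0.0127), with no overlap. The count was 0 without either DMSO library of Kasumi-1 or its ABBV-744 replicate 2, 4 without either of its ABBV-075 libraries and 6 without either DMSO library of SKM-1. CENPE, which rose with ABBV-075, was at 24.4 and 19.7 FPKM (0.55 ± 0.35, adjusted p = 0.279). For the response to ABBV-744 in NCI-H1299 against the mean of the leukaemia lines, 0 genes were higher and 0 lower (background 0.265% higher and 0.305% lower, with 0 higher and 16 lower at an unadjusted p below 0.05). That count was 9 and 4 without DMSO replicates 1 and 2 of SKM-1.

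The compounds were also compared with each other, at doses that differ. In NCI-H1299 47 genes were higher with ABBV-744 than with ABBV-075 and 0 lower (background 18.6% higher and 16% lower, and 0 lower at an unadjusted p below 0.05). UBE2C was at 172 and 155 FPKM with ABBV-744 and 26.1 and 28.8 FPKM with ABBV-075 (2.53 ± 0.43, adjusted p = 0.000312), CDCA3 at 95 and 93.4 and 20.5 and 20.3 FPKM (2.16 ± 0.19, adjusted p = 4.66e-07), and CDC25B at 55.3 and 60.3 and 60.1 and 54.5 FPKM (0.01 ± 0.14, 95% interval of -0.29 to 0.32). In MV-4-11 19 were higher and 0 lower (background 12.5% higher and 9.44% lower, and 1 lower at an unadjusted p below 0.05), led by CDCA5 (1.06 ± 0.14), FOXM1 (1.05 ± 0.18) and PLK4 (1.01 ± 0.13). In SKM-1 18 were higher and 0 lower (background 22.7% higher and 21% lower, and 0 lower at an unadjusted p below 0.05), led by CDCA5 (1.25 ± 0.14) and FOXM1 (1.06 ± 0.18). CCNB1, which rose with either compound in SKM-1, was at 141 and 127 FPKM with ABBV-744 and 131 and 136 FPKM with ABBV-075, a difference of 0.00 ± 0.15 with a 95% interval of -0.32 to 0.31. Kasumi-1 ran the other way, with 14 lower and 1 higher with ABBV-744 (background 21.2% higher and 16.5% lower), CENPE (-1.02 ± 0.35), DLGAP5 (-0.83 ± 0.17) and ASPM (-0.80 ± 0.18) lowest and CDCA5 the gene that was higher (0.44 ± 0.14). The MV-4-11 count was 10 without ABBV-075 replicate 2 and 11 without ABBV-744 replicate 1, and the SKM-1 count was 9 without ABBV-744 replicate 1. The Kasumi-1 count of 15 was 8 without ABBV-075 replicate 2 and 6 without ABBV-744 replicate 2, and CENPE (-0.44) and CDCA5 (0.19) were not called without the first of these. A fit on 1 line alone gave 5 in SKM-1 and 5 in Kasumi-1.

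Lists of related genes were read beside the 50. Of 25 other spindle, G2/M and cytokinesis genes, 25 fell with ABBV-075 in NCI-H1299 (median -1.52), with PSRC1 at -2.37 ± 0.14 and PKMYT1, the kinase that inhibits CDK1, at -2.16 ± 0.22. In Kasumi-1 10 of them rose and 5 fell, CDKN3 rising by 1.12 ± 0.16 and CDC25A, the phosphatase of S phase entry, falling by 1.70 ± 0.08. Of 30 other kinetochore and checkpoint genes, 25 fell in NCI-H1299, with HJURP, the chaperone that loads CENPA, at -2.31 ± 0.14, and in Kasumi-1 8 rose and 5 fell, with the scaffold KNL1 at 1.23 ± 0.17. Over all genes in Kasumi-1 24.7% rose and 32.6% fell, so the 8 of 30 that rose were near the background and the 5 of 30 that fell were below it. In both SKM-1 and MV-4-11 16 of these 30 fell, KNTC1 by 1.50 ± 0.13 in MV-4-11. Over all genes 29.2% fell in SKM-1 and 22.1% in MV-4-11. The share called lower in NCI-H1299 was above the background of 26.5% in both lists. The lists were chosen with earlier results of these data known, so this excess is a description and not an independent test.

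The lists of other machinery were called in part. Of 16 APC/C genes, which were core subunits, the coactivator FZR1 and the inhibitor FBXO5 (EMI1), 5 fell and 1 rose in NCI-H1299 (median -0.33). These shares were near the background of 26.5% lower and below that of 20.6% higher. FBXO5 was at -1.27 ± 0.22, and ANAPC5 at 0.08 ± 0.10 was not called. Of 12 condensin and cohesin subunits, 8 fell in NCI-H1299, a share above the same 26.5%, with NCAPG at -1.08 ± 0.19. Among 11 DREAM and MuvB regulators 7 fell in NCI-H1299, also a share above 26.5%. They included MYBL2 (B-MYB), which was lower in all 4 lines (-1.37 ± 0.26 in SKM-1, -1.24 ± 0.26 in MV-4-11, -1.25 ± 0.26 in Kasumi-1 and -1.49 ± 0.26 in NCI-H1299), as FOXM1 was. The pocket protein RBL2 (p130) was not called in any of the 4 (0.12 ± 0.13 in NCI-H1299).

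DNA replication genes, which are transcribed in late G1 and S phase, gave another arrangement. Of 30, ABBV-075 lowered 29 in SKM-1, 29 in MV-4-11, 26 in Kasumi-1 and 29 in NCI-H1299. Over all genes tested 29.2%, 22.1%, 32.6% and 26.5% fell in that order. MCM5, a subunit of the replicative helicase, was at -2.31 ± 0.30, -1.89 ± 0.30, -2.54 ± 0.30 and -2.22 ± 0.30 in the same order. In the test of NCI-H1299 against the leukaemia lines, 4 of these 30 were lower and 1 higher (median -0.06), while 21 of the 25 other spindle genes and 48 of the 50 mitotic genes were lower. Over all genes 10.5% were lower and 8.0% higher in that test. The 4 of 30 were near the first share and the 1 of 30 was below the second. In Kasumi-1 with ABBV-075, then, 26 of 30 replication genes fell in the libraries in which 22 of the 50 mitotic genes rose. ABBV-744 lowered 19 of the 30 in Kasumi-1, with MCM3 at -1.12 ± 0.12, against 1 of the 50 mitotic genes and 15.0% of all genes. In NCI-H1299 limma called 0 of 30 lower (5 at an unadjusted p below 0.05), beside 3.95% of all genes.

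**Figure D5:**
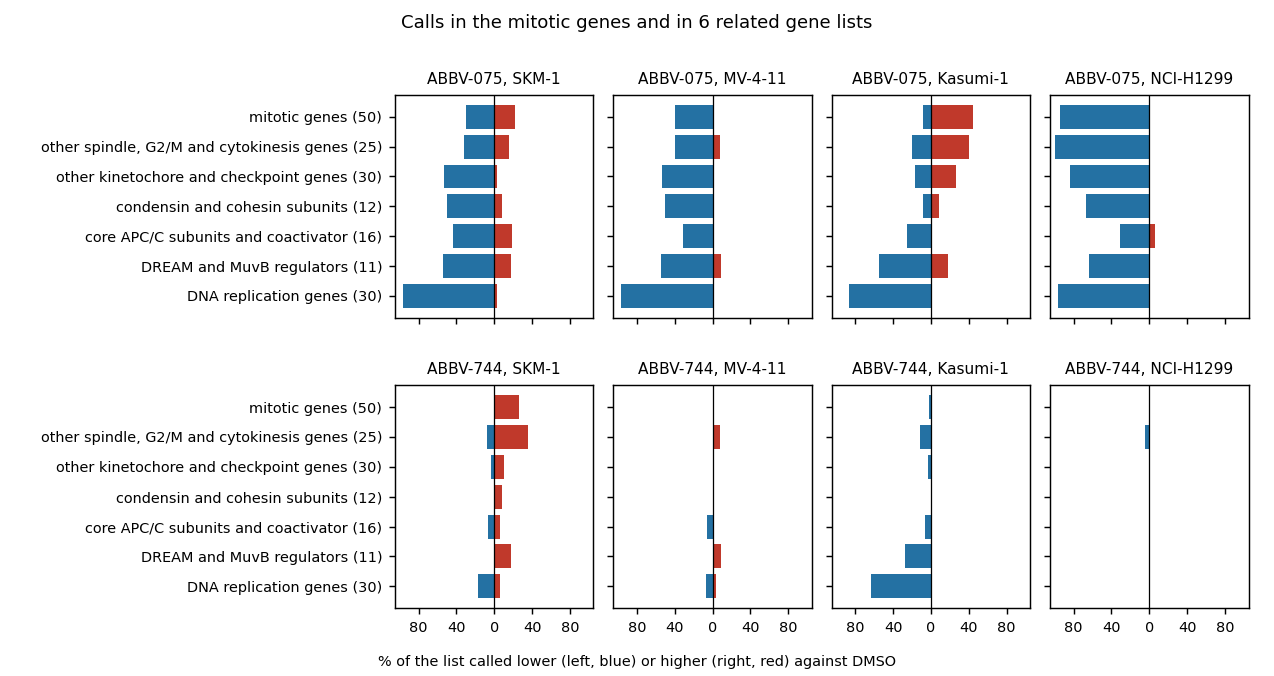
Percent of each gene list called lower (left) or higher (right) against DMSO in the 4 lines with ABBV-075 (top) and ABBV-744 (bottom), with list sizes in brackets. DNA replication genes were lower in all 4 lines with ABBV-075 (26 to 29 of 30). Of the 50 mitotic genes, 47 were lower in NCI-H1299, 20 in MV-4-11, 15 in SKM-1 and 4 in Kasumi-1. Higher were 22 in Kasumi-1, 11 in SKM-1, 1 in MV-4-11 and 0 in NCI-H1299.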

How the data were processed

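Poly-A RNA from 24 libraries was sequenced on an Illumina instrument, per the labels' protocols. The authors deposited FPKM for 30373 rows. DESeq2 is named in the submitters' processing notes, with no role or version. Aligner, quantifier, build, annotation: not given in the sources used here. Depth is unknown, since no counts were used. Replicates were numbered in accession order. Values were analysed as log2(FPKM + 1) with limma 3.58.1 (R 4.3.3, statmod 1.5.0), with 12 group means, 12 residual degrees of freedom, and a moderated variance with trend and robust fitting. A gene was tested where at least 2 libraries of each line compared reached 1 FPKM, and p-values were adjusted by Benjamini-Hochberg over all genes tested in each of 17 comparisons. The code was tested on simulated data. All 50 members may be named. From the related lists, up to 3 called genes with the largest change and up to 2 uncalled with the smallest were eligible per comparison, beside CDKN1A, MYC, HEXIM1 and cell type markers. The members and lists were chosen with earlier results of these data known. Alternatives changed the pseudocount, filter, scaling, variance model and libraries used, 33 in all. Promoters came from RefSeq (GRCh38.p14). A marker gene is not reported here.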

Additional observations from a re-analysis of the deposited data

Results flagged for a closer look

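The responses of the mitotic genes to ABBV-075 differed between lines by a limma test of the difference itself. NCI-H1299 and the mean of the 3 leukaemia lines differed for 48 of the 50 genes, all lower in NCI-H1299, against 10.5% lower over all genes tested, and 45 to 49 with each library left out in turn. Kasumi-1 and MV-4-11 differed for 26, all higher in Kasumi-1, against 10.5% higher over all genes, and 8 to 29 with a library left out. Kasumi-1 and SKM-1 differed for 15, of which CDC20 alone was lower in Kasumi-1, against 12.2% higher and 18.7% lower over all genes. That count was 5 to 27 with a library left out and 1 in a fit on those lines alone. SKM-1 and MV-4-11 differed for 7, all higher in SKM-1, a share near the 15.6% higher over all genes. It was 2 to 16 with a library left out and 1 in a fit on those lines alone.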

How the results depend on the processing

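With 24 libraries in groups of 2 and no counts, the precision of single values rests on the shared variance, and where a library is left out the lone library is assumed to vary like the other groups. No paired analysis was possible because the labels carry no replicate numbers. Of 28036 changes of single members recomputed under 33 alternatives, 26745 kept their call and direction or, where not called, moved by less than 1 SE, 697 lost their call, 348 gained one, 245 that were not called moved by more than 1 SE and 1 reversed. That value was UBE2C in the SKM-1 minus MV-4-11 response to ABBV-075, at -0.41 with all libraries and 0.72 without DMSO replicate 2 of SKM-1. Over all libraries left out in turn it ranged from -1.55 to 0.72. In 24 of the 33 alternatives 1 library was left out. Where it belonged to a line outside the comparison, only the shared estimate of spread could change. The total that kept their call therefore says little about any single comparison.

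A fit on the lines compared alone called 7 members with ABBV-075 in SKM-1, 0 with ABBV-744 in SKM-1, 0 with ABBV-744 in Kasumi-1 and 21 with ABBV-744 in NCI-H1299. For ABBV-744 minus ABBV-075 it called 5 in SKM-1 and 5 in Kasumi-1, and for the ABBV-075 response 1 between Kasumi-1 and SKM-1 and 1 between SKM-1 and MV-4-11. Rescaling without mitochondrial transcripts gave 7, 3 and 4 calls with ABBV-744 in that order of SKM-1, MV-4-11, Kasumi-1, and 3 for SKM-1 minus MV-4-11. With ABBV-744, rescaling to the same sum gave 4 calls in Kasumi-1, quantile normalization 1 in MV-4-11, and the variance model without trend or robust fitting 1 in MV-4-11, 4 in Kasumi-1 and 1 in NCI-H1299. Without a filter on low values there was 1 call with ABBV-744 in NCI-H1299 and 2 for NCI-H1299 minus the leukaemia lines. The shares of all genes called under these alternatives were not computed. The cause of these moves was not tested.

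Leaving out each library in turn gave, with ABBV-075, 16 to 29 calls in SKM-1, 10 to 25 in MV-4-11, 20 to 31 in Kasumi-1 and 46 to 47 in NCI-H1299, and with ABBV-744, 5 to 22, 0 to 3, 0 to 6 and 0 to 2 in the same order. Between the compounds it gave 9 to 24, 10 to 26, 6 to 22 and 44 to 47. Between lines it gave 45 to 49 for NCI-H1299 minus the leukaemia lines with ABBV-075 and 0 to 9 with ABBV-744, 5 to 27 for Kasumi-1 minus SKM-1, 8 to 29 for Kasumi-1 minus MV-4-11 and 2 to 16 for SKM-1 minus MV-4-11. Scaling moved the median of all genes by over 0.1 in 2 comparisons: with ABBV-744 in SKM-1 from 0.05 to -0.09 without mitochondrial transcripts (members 0.24 to 0.07), and with ABBV-075 in Kasumi-1 from -0.09 to 0.04 after quantile normalization (members 0.33 to 0.47).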
